A study of Rattus norvegicus with 23 samples.

Results

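Genes named Zfp followed by a number encode zinc finger proteins, and 155 of the 10723 genes with a value per library carried such a symbol, as did 161 of the 11283 genes in the authors' deposited comparison tables. The members were chosen by symbol alone, so they share a naming convention and not necessarily a line of descent. All 155 reached the minimum mean level and were tested. The 6 found in the authors' deposited tables alone were Zfp57, Zfp13, Zfp2, Zfp39, Zfp354c and Zfp978.

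Myocardium was taken from Sprague-Dawley rats, and polyadenylated RNA was sequenced. In the MI+TRD groups, rats had the left coronary artery ligated through a left thoracotomy, which causes a myocardial infarction (MI), and then a second operation to implant a device that the labels call TRD and do not describe. In the MI groups, rats had the infarction alone, and the labels name no sham implant, so the device and the second operation cannot be told apart. There were 6 MI+TRD and 6 MI libraries at 12 weeks, and 5 MI+TRD and 6 MI libraries at 6 weeks. The labels give neither age, sex nor animal identifiers, nor say where in the heart the tissue was cut, so the p-values reflect only how much these samples vary, which may be technical. Values per library were available for 12 weeks, and the 6-week groups enter through the authors' deposited table.

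A zinc finger is a small fold held by a zinc ion. Most of these proteins carry rows of C2H2 fingers that read DNA, and many join them to a KRAB domain, which recruits the corepressor Trim28 and, through it, histone methylation by Setdb1. A few do other work. The Zfp36 family has CCCH fingers, binds AU-rich elements in messenger RNA and recruits the CCR4-NOT deadenylase, so that the message is degraded. Other members act in ribosome assembly, ubiquitin transfer or the fate of mesenchymal cells.

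The 12 libraries held between 7197118 and 10304156 reads, inferred from the steps in the deposited values. The summed level of 8 cardiomyocyte markers lay between 29970 and 51230 normalized counts in MI+TRD and between 36380 and 57900 in MI, so the tissue carried the defining transcripts of heart muscle. The libraries were uneven in other cells. The summed level of 4 atrial markers lay between 45.96 and 3257 in MI+TRD and between 147.5 and 11800 in MI. For 8 macrophage markers the sums were 34.17 to 454.4 in MI+TRD and 50.03 to 126.9 in MI, for 6 fibroblast markers 685.7 to 3036 in MI+TRD and 760 to 1087 in MI, and for 5 measured epicardial markers 15.45 to 83.67 in MI+TRD and 9.302 to 24.27 in MI. At an unadjusted limma p below 0.05, 4 of 5 epicardial markers were higher in MI+TRD at 12 weeks (80%, beside 2.8% of all genes). Of 8 cardiomyocyte markers 2 were lower (25%, beside 19.1%). The atrial, macrophage and fibroblast markers were in neither set, and no marker passed after adjustment over all genes. The lowest mean of any measured marker in these lists was 0.449 normalized counts. Their part in the results below was not tested, and in bulk tissue fewer cells of a type and less RNA per cell cannot be told apart.

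The 12-week comparison set infarcted hearts that carried the device against infarcted hearts that did not. No Zfp gene passed the test over all genes (limma, 0 of 155 at a Benjamini-Hochberg adjusted p below 0.05, background 0% of 10650). At an unadjusted limma p below 0.05, 7 Zfp genes (4.52%) were higher in MI+TRD, beside 2.8% of all genes tested, and 20 (12.9%) were lower, beside 19.1%. On the reads inferred from the values, edgeR's quasi-likelihood test also called 0 members and 0 of all genes, and DESeq2 called 0 members beside 0.197% of all genes. The number higher depended on single libraries. Without MI+TRD 1 it was 1 (0.645%, beside 2.41% of all genes), without MI+TRD 4 it was 3 (1.94%, beside 2.29%), without MI 1 it was 2 (1.29%, beside 1.93%), without MI 2 it was 3 (1.94%, beside 1.9%) and without MI 4 it was 1 (0.645%, beside 1.78%), so that the Zfp share then lay near or below that of all genes. The number lower was 11 without MI 2 (7.1%, beside 14.9%).

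How the libraries were scaled moved the split between higher and lower, in Zfp genes and in all genes alike. With the deposited scaling the median of all genes stood at -0.14 on the log2 scale, and the median Zfp gene at -0.09; 60 of 155 Zfp genes (38.7%) were above 0, beside 32.2% of all genes. With median ratio scaling 16 Zfp genes were higher (10.3%, beside 7.49% of all genes) and 7 lower (4.52%, beside 8.25%) at an unadjusted limma p below 0.05. With equal column totals 23 were higher (14.8%, beside 11.3%) and 3 lower (1.94%, beside 3.87%), and with quantile normalization 12 were higher (7.74%, beside 6.55%) and 8 lower (5.16%, beside 9.81%). On the inferred reads the split was 15 higher and 7 lower by edgeR, beside 7.98% and 6.99% of all genes, and 18 higher and 7 lower by DESeq2, beside 8.85% and 7.17%. Relative values, a log2 fold change minus the median of all genes, do not carry that shift, and the median Zfp gene lay 0.05 above all genes on this scale. In all, 91 of 155 (58.7%) lay above the median of all genes, where 50% of genes do by construction. The median Zfp gene turned to -0.05 on this scale when MI+TRD 1, 4 and 5 were left out together. Those were the libraries in which the median Zfp gene stood highest relative to all genes, at 0.22, 0.15 and 0.14. It stood at -0.11, -0.06 and -0.06 in MI+TRD 2, 3 and 6 and at most 0.07 in MI. Leaving out the highest libraries lowers the median by itself, so no conclusion is drawn from the turn.

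**Figure D1:**
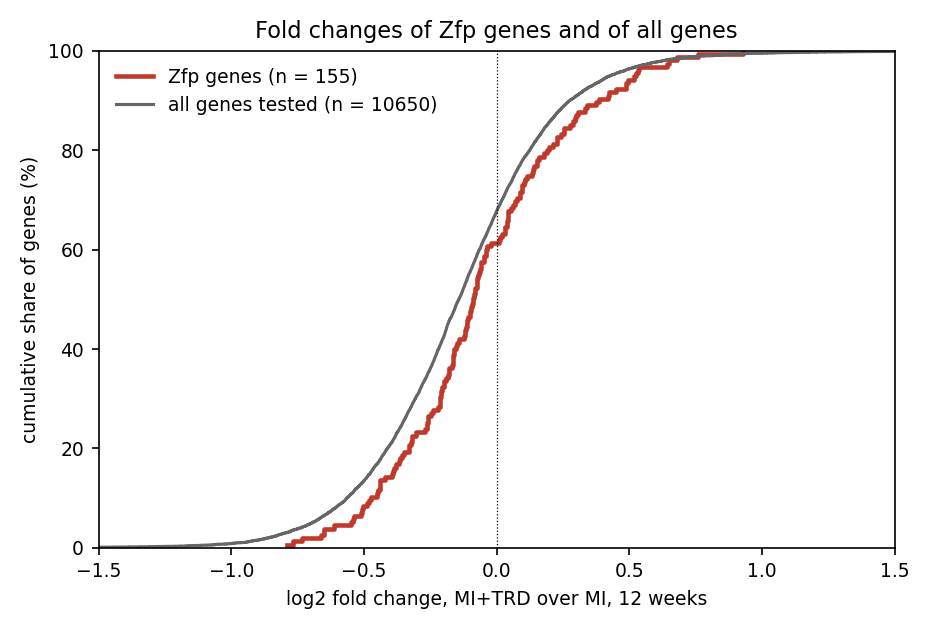
Cumulative share of genes (y axis) against the log2 fold change of MI+TRD over MI at 12 weeks (x axis), for the 155 Zfp genes and for all 10650 genes tested. The Zfp curve lies slightly to the right, with medians of -0.09 for Zfp genes and -0.14 for all genes.

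Zfp131, a BTB-domain regulator of transcription, had the smallest p among Zfp genes that were higher. Its normalized count was lowest at 14, median 15.2 and highest 20.8 in MI+TRD, against 9.45, 10.6 and 14.8 in MI. Each of the 6 MI+TRD values exceeded the MI mean, and the groups overlapped at their edges. The means were 16.0 ± 2.52 in MI+TRD and 11.3 ± 2.10 in MI (SD, n = 6 each), a log2 fold change of 0.50 (SE 0.15; limma adjusted p = 0.133; exact permutation p = 0.00866, two-sided). By DESeq2 its adjusted p was 0.0565, the smallest of any Zfp gene.

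The next in rank overlapped more. Zfp655, which binds the exchange factor Vav in mouse and human cells, ran from 15.3 over a median of 20.2 to 25.3 in MI+TRD, against 8.16, 14.97 and 20.6 in MI (log2 fold change 0.53, SE 0.22; limma adjusted p = 0.177). Zfp518a ran from 4.69 over 5.79 to 9.61 in MI+TRD, against 1.99, 4.35 and 6.58 in MI (0.68, SE 0.29; limma adjusted p = 0.188). In both genes 6 of 6 MI+TRD values exceeded the mean of MI.

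Zfp329 averaged 5.40 ± 0.818 in MI+TRD and 3.91 ± 1.21 in MI (SD, n = 6 each; log2 fold change 0.49, SE 0.21; limma adjusted p = 0.194). Zfp292, a large DNA-binding protein, averaged 12.9 ± 3.68 in MI+TRD and 9.03 ± 3.09 in MI (0.54, SE 0.24; limma adjusted p = 0.213), with 5 of 6 MI+TRD libraries above the MI mean. Zfp40 was a low gene, at 1.71 ± 0.748 in MI+TRD and 0.953 ± 0.706 in MI (0.93, SE 0.42; limma adjusted p = 0.217), and it was down to 3 inferred reads in one library. Zfp317 was the seventh higher gene, at 7.997 ± 1.16 in MI+TRD and 6.22 ± 1.46 in MI (0.37, SE 0.17; limma adjusted p = 0.219).

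**Figure D2:**
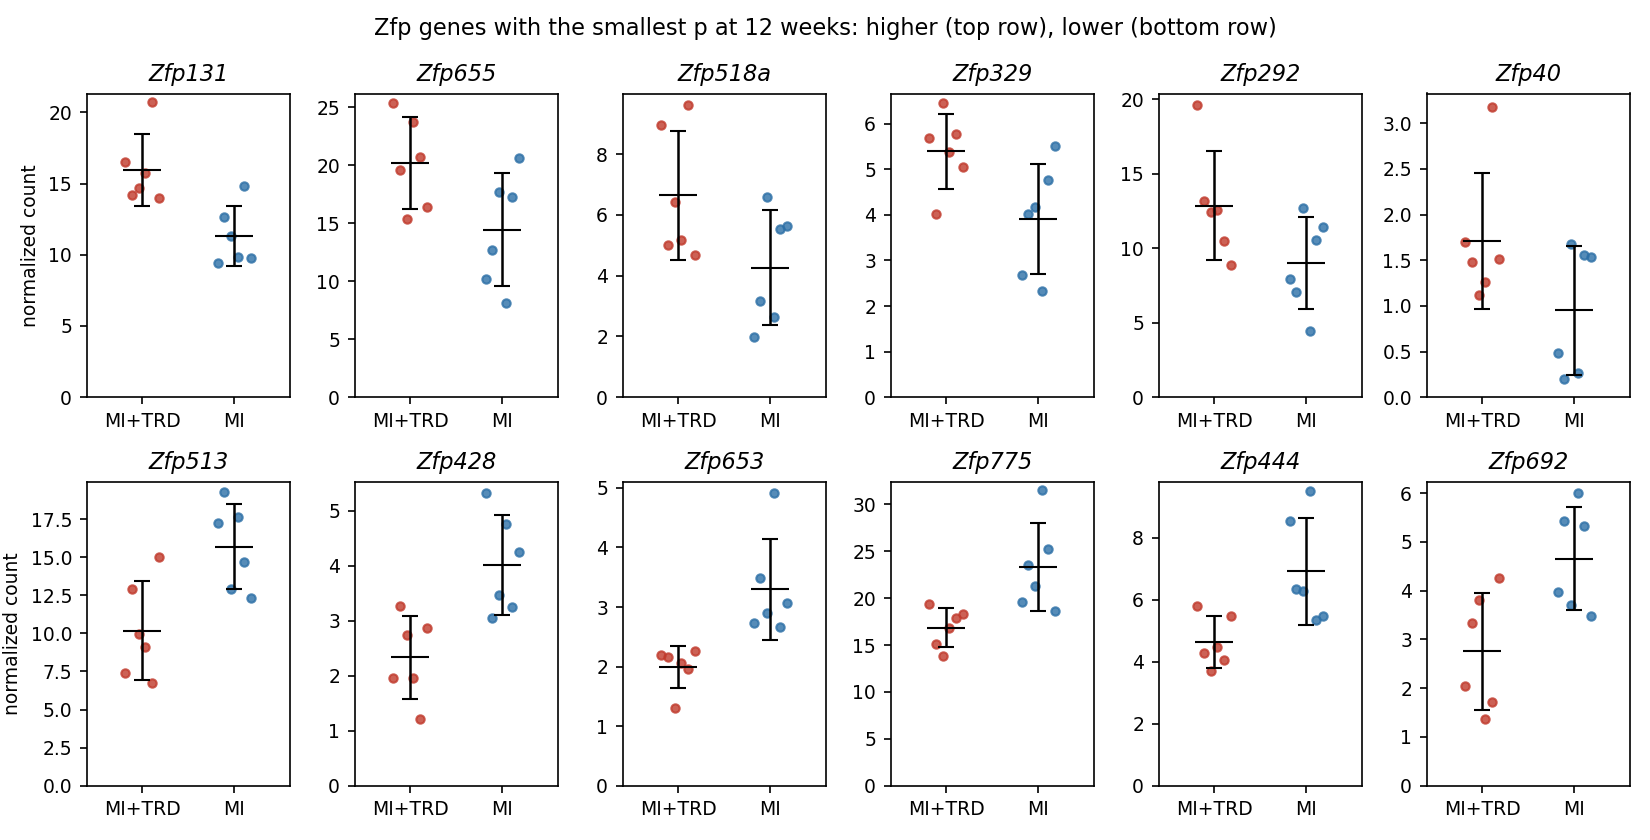
Normalized counts per library at 12 weeks for the Zfp genes with the smallest p in each direction, MI+TRD left of MI, with group means and SD (n = 6 each). For Zfp653 the MI+TRD libraries, 1.30 to 2.27, all lie below the MI libraries, 2.67 to 4.92; for Zfp131 the groups overlap at their edges.

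Among lower genes, Zfp653 was the only Zfp gene whose groups did not overlap. Zfp653 encodes a corepressor of nuclear receptors. Its normalized count was lowest at 1.30, median 2.11 and highest 2.27 in MI+TRD, against 2.67, 2.99 and 4.92 in MI. That 1 gene is 0.645% of the Zfp genes, beside 1.59% of all genes below in every MI+TRD library; no Zfp gene lay above in every library, beside 0.113% of all genes. The log2 fold change of Zfp653 was -0.66 (SE 0.20; limma adjusted p = 0.133), and the exact permutation p of 0.00216 is the smallest that 6 against 6 libraries allow.

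Zfp428 ran from 1.22 over a median of 2.35 to 3.26 in MI+TRD, against 3.06, 3.86 and 5.32 in MI (log2 fold change -0.77, SE 0.23; limma adjusted p = 0.133). Zfp513, whose human counterpart is mutated in an inherited retinal degeneration, ran from 6.71 over 9.53 to 15.04 in MI+TRD, against 12.3, 16.0 and 19.3 in MI (-0.65, SE 0.20; limma adjusted p = 0.133). Both overlapped narrowly, with 6 of 6 MI+TRD values under the mean of MI. In the authors' deposited table, Zfp653, Zfp428 and Zfp513 were the 3 Zfp genes past a false discovery rate of 0.05 (1.86% of Zfp genes, beside 2.9% of all genes lower), with ratios of 0.590, 0.565 and 0.632, and none was higher (beside 0.0443% of all genes). At a deposited p below 0.05, 9 (5.59%) were higher, beside 2.12% of all genes, and 25 (15.5%) lower, beside 22%, in the authors' deposited table. Its ratio was above 1 for 61 of 161 Zfp genes (37.9%), beside 32.7% of all genes in the authors' deposited table.

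Zfp775 measured 16.9 ± 2.07 in MI+TRD and 23.3 ± 4.70 in MI (SD, n = 6 each; log2 fold change -0.45, SE 0.14; limma adjusted p = 0.133). Zfp444, described in human endothelial cells as an activator of a scavenger receptor gene, measured 4.63 ± 0.828 in MI+TRD and 6.92 ± 1.71 in MI (-0.54, SE 0.18; limma adjusted p = 0.133). Zfp692, described as a target of the energy-sensing kinase AMPK, measured 2.76 ± 1.199 in MI+TRD and 4.66 ± 1.06 in MI (-0.79, SE 0.27; limma adjusted p = 0.134). In all 3, 6 of 6 MI+TRD libraries lay below the MI mean. Another 14 genes were lower with an unadjusted limma p below 0.05, namely Zfp110, Zfp111, Zfp18, Zfp202, Zfp219, Zfp346, Zfp414, Zfp467, Zfp593, Zfp61, Zfp637, Zfp746, Zfp787 and Zfp94. Zfp746, known as PARIS, represses the gene of the mitochondrial regulator PGC-1alpha in mouse neurons, and Zfp467 steers marrow stromal cells between fat and bone in mouse.

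The promoters of 4 of these genes are shown, chosen after their values were seen: Zfp131 for the smallest p among higher genes, Zfp653 for groups that did not overlap, Zfp428 as one of the 3 below the authors' false discovery rate of 0.05, and Zfp775 for the smallest deposited p at 6 weeks. They run 5′ to 3′ along the gene's strand, from RefSeq on build GRCr8, and capitals mark any match, on either strand, to the GC box GGGCGG, the CCAAT box CCAAT, the TATA box TATAAA or the ETS motif CCGGAAG. Zfp131 lies at chr2:53485236-53485535 on the minus strand, Zfp653 at chr8:28880892-28881191 on the minus strand, Zfp428 at chr1:89227192-89227491 on the plus strand and Zfp775 at chr4:78887780-78888079 on the plus strand.
Zfp131: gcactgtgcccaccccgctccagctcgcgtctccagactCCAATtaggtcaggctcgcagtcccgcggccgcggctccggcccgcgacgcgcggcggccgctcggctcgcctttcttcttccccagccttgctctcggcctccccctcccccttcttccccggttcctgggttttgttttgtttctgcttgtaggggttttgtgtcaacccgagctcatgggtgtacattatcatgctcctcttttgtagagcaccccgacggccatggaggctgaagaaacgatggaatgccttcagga
Zfp653: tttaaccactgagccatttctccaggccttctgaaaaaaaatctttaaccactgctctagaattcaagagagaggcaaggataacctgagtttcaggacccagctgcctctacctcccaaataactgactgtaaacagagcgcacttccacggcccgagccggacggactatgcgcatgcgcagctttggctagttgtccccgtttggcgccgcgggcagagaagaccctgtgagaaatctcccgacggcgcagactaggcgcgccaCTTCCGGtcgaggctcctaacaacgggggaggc
Zfp428: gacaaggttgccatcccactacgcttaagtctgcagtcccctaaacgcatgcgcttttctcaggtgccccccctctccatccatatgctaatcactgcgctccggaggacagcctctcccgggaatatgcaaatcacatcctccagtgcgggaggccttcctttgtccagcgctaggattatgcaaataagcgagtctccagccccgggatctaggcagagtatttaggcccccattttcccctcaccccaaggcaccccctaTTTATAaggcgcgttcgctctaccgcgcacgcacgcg
Zfp775: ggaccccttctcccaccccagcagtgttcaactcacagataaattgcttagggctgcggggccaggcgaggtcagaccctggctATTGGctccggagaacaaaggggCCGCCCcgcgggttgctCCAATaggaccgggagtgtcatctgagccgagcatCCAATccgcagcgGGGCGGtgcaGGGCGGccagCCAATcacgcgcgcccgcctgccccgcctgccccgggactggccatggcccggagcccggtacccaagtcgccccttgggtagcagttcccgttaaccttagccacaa
Zfp131 has 1 CCAAT box, Zfp653 1 ETS motif and Zfp428 1 TATA box, while Zfp775 has 3 GC boxes and 4 CCAAT boxes. Of the 155 genes, 128 matched a RefSeq promoter by symbol or, failing that, by a synonym held by a single gene. Other genes were matched by symbol alone. The GC box, the site of Sp and Klf zinc fingers, stood in 61 of these 128 promoters (47.7%), beside 63.4% of 8234 other genes tested and 34.9% of all 27457 promoters. The CCAAT box stood in 40.6% of Zfp promoters, beside 37.5% and 37.7%, the TATA box in 10.2%, beside 6.72% and 14.3%, and the ETS motif in 19.5%, beside 17.9% and 9.22%. Median GC content was 58.5% in Zfp promoters, 61% in other genes tested and 52.3% in all promoters. Across the 128 genes the log2 fold change had a Pearson's r of -0.06 with promoter GC, given as a description.

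Of the 23 measured genes listed by role, 1 was higher at an unadjusted limma p below 0.05 (Zfp292; 4.35%, beside 2.8% of all genes) and 1 was lower (Zfp593; 4.35%, beside 19.1%). The 3 genes of RNA decay were in neither set. Zfp36, tristetraprolin, ran from 41.2 over a median of 76.2 to 171 in MI+TRD, against 49.1, 114 and 143 in MI (log2 fold change -0.26, SE 0.34; limma adjusted p = 0.708). Zfp36l1 averaged 70.7 ± 28.0 in MI+TRD and 57.7 ± 12.5 in MI (0.23, SE 0.23), and Zfp36l2 48.9 ± 17.8 in MI+TRD and 54.8 ± 12.1 in MI (-0.21, SE 0.21). The spread of Zfp36 within each group exceeded the difference between them.

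The partners and targets of that family were counted in the same way. Of 15 measured deadenylation and decay partners, 1 was higher at an unadjusted limma p below 0.05 (6.67%, beside 2.8% of all genes), the deadenylase subunit Cnot6l (log2 fold change 0.998, SE 0.27), and 2 were lower (13.3%, beside 19.1%), Cnot9 (-0.62, SE 0.20) and the decapping scaffold Edc4 (-0.38, SE 0.14). Of 13 measured AU-rich transcripts, 0 were higher and 1 was lower (7.69%, beside 19.1%), Vegfa (-0.54, SE 0.15), which encodes an angiogenic growth factor. Of 12 measured KRAB corepressor partners, 0 were higher and 0 lower, and Trim28 measured -0.14 (SE 0.11) and Setdb1 -0.14 (SE 0.15). Of 35 genes named Zbtb, 1 was higher (2.86%) and 4 were lower (11.4%), of 7 named Zscan or Zkscan 0 and 1 (14.3%), and of 12 named Klf 0 and 2 (16.7%), all beside 2.8% and 19.1% of all genes, so that no share lower exceeded that of all genes. None of these genes passed limma's adjusted threshold.

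Several members act on RNA or ribosomes. Zfp593, a ribosome assembly factor known from its yeast counterpart, ran from 1.53 over a median of 3.82 to 5.48 in MI+TRD, against 3.48, 5.49 and 6.78 in MI (log2 fold change -0.65, SE 0.29; limma adjusted p = 0.205). Relative to all genes it stood at -0.51, and at 0.049 without MI+TRD 1, 4 and 5. The median of all genes was -0.15 in that fit, so the log2 fold change itself stayed below 0. With 1 library left out in turn, Zfp593 stayed between -0.67 and -0.29 relative to all genes. The fit without MI+TRD 1, 4 and 5 holds only part of that group, so no conclusion is drawn from it. Zfp346, which binds double-stranded RNA, averaged 8.88 ± 0.829 in MI+TRD and 11.9 ± 2.59 in MI (-0.39, SE 0.15; limma adjusted p = 0.160). Zfp598, a ubiquitin ligase at collided ribosomes in human cells, averaged 23.4 ± 1.17 in MI+TRD and 26.6 ± 4.79 in MI (-0.16, SE 0.13). Zfp622, which acts in maturation of the large ribosomal subunit in yeast, measured -0.20 (SE 0.16), the nuclear RNA-binding protein Zfp638 0.20 (SE 0.17) and Zfp207, a spindle assembly and splicing factor, 0.04 (SE 0.11), each as a log2 fold change.

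Among members that act on chromatin or transcription, the 5 others listed by role were within 2 SE of 0. Zfp148 and Zfp281, which bind GC-rich DNA, measured log2 fold changes of 0.12 (SE 0.21) and 0.23 (SE 0.20), the Integrator partner Zfp609 -0.11 (SE 0.14), the G9a partner Zfp644 0.31 (SE 0.18) and the nuclear matrix factor Zfp384 -0.26 (SE 0.14). Other members are tied to cell identity. Zfp423, a factor of preadipocyte commitment in mouse, averaged 10.8 ± 3.62 in MI+TRD and 10.2 ± 3.77 in MI (log2 fold change 0.10, SE 0.25). Its relative Zfp521 measured 0.11 (SE 0.22) and the corepressor Zfp703 -0.16 (SE 0.17). Zfp91, a ubiquitin ligase, averaged 135 ± 43.4 in MI+TRD and 99.2 ± 23.1 in MI (0.42, SE 0.20; limma adjusted p = 0.237), and the SUMO ligase Zfp451 measured 0.13 (SE 0.17).

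The 5 members grouped next, most with a described part in heart or vessel, did not pass an unadjusted limma p of 0.05. Zfp444, described above in endothelial cells, did so among the lower genes. Zfp260, a partner of GATA4 in rodent heart muscle cells, ran from 17.7 over a median of 21.2 to 27.2 in MI+TRD, against 13.6, 18.7 and 21.9 in MI (log2 fold change 0.21, SE 0.14; limma adjusted p = 0.4001). Zfp667, also called Mipu1 and first cloned from rat heart after brief ischaemia, averaged 4.97 ± 1.54 in MI+TRD and 3.65 ± 0.964 in MI (0.42, SE 0.22; limma adjusted p = 0.285) and was named after its values were seen. Zfp418 and Zfp580 measured 0.16 (SE 0.32) and -0.10 (SE 0.20). Zfp354a, a KRAB protein described as Kid-1 in rat kidney, measured 0.28 (SE 0.23).

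The log2 fold change went with the length of genome a gene spans. Span was the end minus the start in the deposited coordinates (rn6). It reached 680 kb in Zfp genes and 130313 kb over all genes, so the longest spans may not be true gene lengths. The 7 higher genes spanned 17.0 to 80.3 kb (median 24.7 kb) and the 20 lower genes 2.33 to 40.1 kb (median 11.8 kb). The median relative log2 fold change was -0.12 in 21 Zfp genes of up to 5 kb, -0.01 in 25 of 5 to 10 kb, 0.07 in 57 of 10 to 20 kb, 0.10 in 34 of 20 to 50 kb and 0.25 in 18 over 50 kb. Other genes showed the same order at the same spans, at -0.23, -0.14, -0.05, 0.05 and 0.15. Across genes, which share libraries and depth, Pearson's r with log10 span was 0.299 and Spearman's rho 0.377 over 155 Zfp genes, beside 0.319 and 0.386 over 10495 others.

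**Figure D3:**
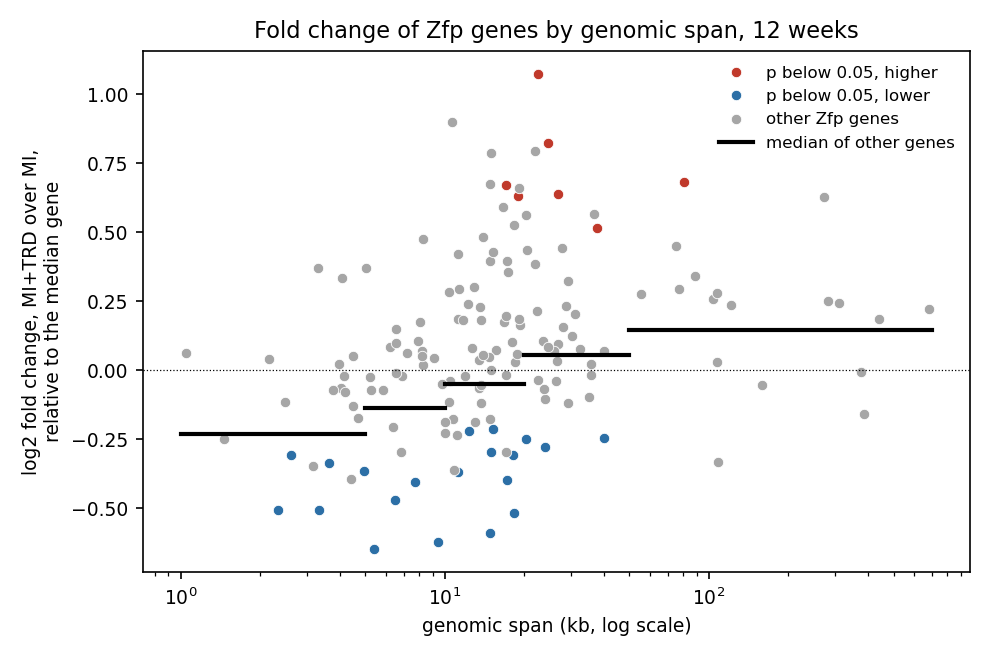
Log2 fold change of MI+TRD over MI at 12 weeks, relative to the median gene (y axis), against genomic span in kb on a log scale (x axis). Each point is 1 of 155 Zfp genes, coloured where the unadjusted limma p was below 0.05, and bars mark the median of other genes, from -0.23 up to 5 kb to 0.15 over 50 kb.

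Libraries differed in this respect. Zfp genes over 20 kb lay at 0.25, 0.25 and 0.22 in MI+TRD 1, 4 and 5, relative to all genes of the library, but at -0.09, -0.05 and -0.11 in MI+TRD 2, 3 and 6, and between -0.26 and 0.07 in MI. Zfp genes of up to 10 kb did not divide the libraries in this way, at 0.07, 0.01 and -0.12 in MI+TRD 1, 4 and 5, at -0.15, -0.10 and -0.04 in MI+TRD 2, 3 and 6 and between -0.01 and 0.08 in MI. Other genes over 20 kb divided the libraries as long Zfp genes did, at 0.13, 0.13 and 0.14 in MI+TRD 1, 4 and 5. They lay at -0.05, -0.01 and -0.05 in MI+TRD 2, 3 and 6 and between -0.098 and -0.0044 in MI. Other genes of up to 10 kb lay at -0.26, -0.25 and -0.25 in MI+TRD 1, 4 and 5. They lay at 0.10, 0.03 and 0.08 in MI+TRD 2, 3 and 6 and between -0.00389 and 0.18 in MI. What sets these libraries apart was not tested. With the trend over span taken out, 7 Zfp genes were higher (4.52%, beside 2.05% of all genes) and 17 lower (11%, beside 18.5%) at an unadjusted limma p below 0.05. Without MI+TRD 1, 4 and 5, 2 were higher (1.3%, beside 2.67%) and 23 lower (14.9%, beside 9.69%). The Zfp share lower then lay above that of all genes and not below it. The median Zfp gene stood highest in the libraries left out, and this fit held fewer libraries. What moved the counts was not tested, and no conclusion is drawn from them.

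**Figure D4:**
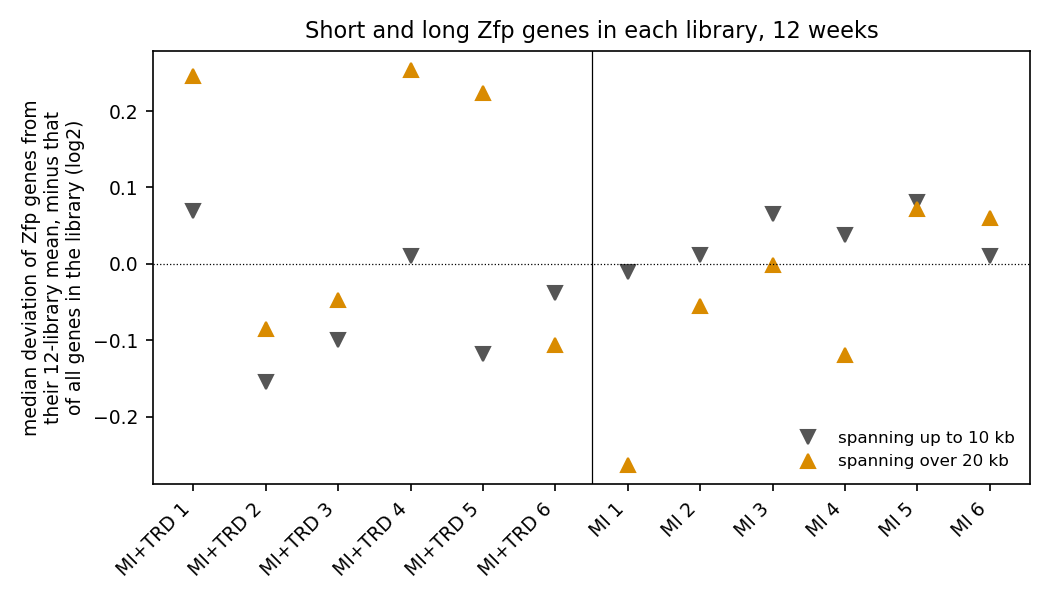
Median deviation of Zfp genes from their 12-library mean (log2), minus that of all genes in the library (y axis), for each library at 12 weeks, MI+TRD left of MI, for genes spanning up to 10 kb and over 20 kb. Zfp genes over 20 kb lie at 0.22 to 0.25 in MI+TRD 1, 4 and 5 and at 0.07 or below in the other libraries. Other genes over 20 kb, not drawn, lie at 0.13 to 0.14 in MI+TRD 1, 4 and 5.

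Zfp genes lie in groups along the chromosomes. By the coordinates of the deposited table (rn6), 39 of 155 (25.2%) lay on chromosome 1, beside 12.5% of all genes, and with gaps of up to 500 kb 45 of them formed 10 clusters of 3 or more. The largest held 7 genes (chr4:77497158-78258546, Zfp786, Zfp398, Zfp282, Zfp777, Zfp746, Zfp467 and Zfp775), with a median relative log2 fold change of -0.19 and 1 of 7 above the median of all genes. A cluster of 6 (chr1:80920745-81382080, Zfp180, Zfp112, Zfp111, Zfp61, Zfp94 and Zfp428) stood at -0.39, with 1 of 6 above. A cluster of 6 on chromosome 7 (15066960 to 15789349, Zfp799, Zfp870, Zfp472, Zfp763, Zfp563 and Zfp955a) stood at 0.21, with 5 of 6 above, and Zfp51, Zfp53 and Zfp52 on chromosome 1 (61314070 to 61426328) at 0.32, with 3 of 3 above. The other 6 clusters had medians between -0.22 and 0.14, among them 6 genes on chromosome 1 (87647051 to 88603220) at -0.00389 with 3 of 6 above, so clusters lay on both sides of all genes. Neighbours in such clusters are often copies of each other, and reads shared between them cannot be separated without the counting rules. By the deposited coordinates (rn6), 7 members overlap a different gene, such as Zfp260 within Zfp382 on the same strand and Zfp219 with Arhgef40 on the opposite. Their values are uncertain in the same way. Most of these members overlap Zfp382 or Zfp74, whose deposited spans were 376 kb and 439 kb. On build GRCr8 the plus-strand promoter of Zfp382 starts at 94504844, past that of Zfp260 at 94469611. The place of Zfp260 within Zfp382 may thus hold for the deposited coordinates alone.

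At 6 weeks no Zfp gene passed a false discovery rate of 0.05 in the authors' deposited table (0 of 161, background 0% in each direction). At a deposited p below 0.05, 1 (0.621%) was higher, beside 4.42% of all genes, and 11 (6.83%) were lower, beside 4.09%. In all, 122 of 161 (75.8%) had a ratio below 1 and 39 (24.2%) above, where 43% of all genes in the authors' deposited table were above. The median log2 ratio was -0.17 for Zfp genes and -0.04 for all genes in the authors' deposited table. Genes named Zbtb stood at a median of -0.17, with 1 of 35 higher and 3 lower at a deposited p below 0.05. Those named Zscan or Zkscan stood at -0.20 (7 genes, 0 higher and 1 lower). Genes named Klf stood at -0.04 (12 genes, 0 and 1), where all genes stood. Genes named Zbtb and Zscan or Zkscan thus shared the lean of Zfp genes, and those named Klf did not. In the same comparison, 5 of 6 fibroblast markers and 7 of 8 macrophage markers were higher at a p below 0.05, and 3 of 5 endothelial markers were lower. The part of these markers in the Zfp values was not tested.

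Zfp775 had the smallest deposited p of the Zfp genes at 6 weeks, at a mean of 18.04 in MI+TRD and 28.2 in MI, a ratio of 0.640 (p = 0.000565) in the authors' deposited table. Next were Zfp426 (ratio 0.656, p = 0.00148), Zfp142 (0.619, p = 0.00764), Zfp532, whose product sits in a complex with the chromatin reader ZMYND8 (0.712, p = 0.00836), and Zfp346 (0.735, p = 0.00883), all from the authors' deposited table. The one higher gene in the authors' deposited table was Zfp580, which acts in migration of endothelial and smooth muscle cells, at 3.17 in MI+TRD and 2.21 in MI (ratio 1.43, p = 0.0451). After it came Zfp251 (1.33, p = 0.0807), Zfp521 (1.32, p = 0.119), Zfp516, a brown fat factor in mouse (1.34, p = 0.129), and Zfp365 (1.51, p = 0.152), none of them below 0.05 in the authors' deposited table. In the authors' deposited table Zfp36 had a ratio of 1.10 (p = 0.585), Zfp36l1 of 1.08 (p = 0.757) and Zfp36l2 of 1.202 (p = 0.248). Of 13 AU-rich transcripts, 0 were higher and 1 lower there at a deposited p below 0.05. Of 15 deadenylation and decay partners the counts were 0 and 0, both lists beside 4.42% higher and 4.09% lower of all genes.

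The 6-week and the 12-week tables used different samples. In the authors' deposited tables, 5 Zfp genes were lower at a p below 0.05 at both times: Zfp111, Zfp219, Zfp346, Zfp692 and Zfp775. They made up 20% of the 25 lower at 12 weeks and 45.5% of the 11 lower at 6 weeks, where over all genes 159 shared genes made up 6.41% and 34.4%. No Zfp gene was higher at both times, with 9 at 12 weeks and 1 at 6 weeks to draw on, beside 18 of all genes. In the authors' deposited tables the ratios of Zfp775 were 0.709 at 12 weeks and 0.640 at 6 weeks, those of Zfp692 0.575 and 0.646, and those of Zfp111 0.681 and 0.668. Across 161 genes, the log2 ratios at both times had a Pearson's r of 0.0992 and a Spearman's rho of 0.0967. At both times 76 (47.2%) were below 1, beside 42.3% of all genes; the 100 below 1 at 12 weeks and the 122 at 6 weeks would give 75.8 if unrelated. Zfp131, highest in rank at 12 weeks, had a ratio of 0.901 (p = 0.610) at 6 weeks in the authors' deposited table. The difference between the times was not tested.

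**Figure D5:**
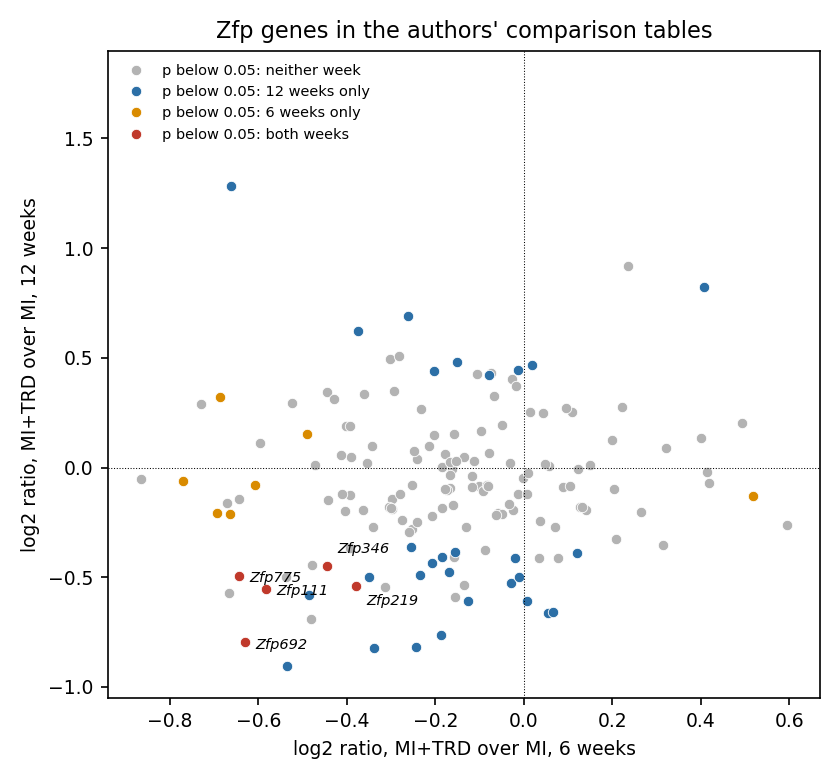
Log2 ratio of MI+TRD over MI at 12 weeks (y axis) against 6 weeks (x axis) for 161 Zfp genes, from the authors' deposited tables. Points are coloured by the week in which p was below 0.05, and the 5 named genes, lower at both times, lie at the lower left, among the 76 below 0 at both.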

How the data were processed

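RNA of rat myocardium was sequenced with Illumina chemistry; the submitters' processing notes name Partek and rn6. The aligner, counter, annotation, scaling, strand and statistical model were not given in the sources used here. The 12-week values are a deposited signal, a normalized count for every gene in each library (from the file headers). Low values were whole multiples of the smallest value of a library, the step, so reads were taken as value over step minus 1; of values up to 20 steps, 97.2% to 98.6% in a library came within 0.1 of a whole number. On these reads edgeR called 0 genes and DESeq2 21 of 10650. For each gene, the authors' tables for 6 and 12 weeks give, per the file headers, a p-value with its false discovery rate. They also give the ratio of MI+TRD to MI, a signed fold change (a score with no fixed range) and group means, per the file headers.

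The main test was limma (trended prior, two-sided) on log2(value + 0.208) over the 12 libraries and the 10650 genes with a mean of at least 0.415, Benjamini-Hochberg adjusted, called below 0.05. The pseudocount understates fold changes of low genes. For single members a two-sided exact permutation test over all assignments of the libraries was added, with 0.00216 as its smallest p. Every pair of libraries within a group differed beyond sampling noise (chi-square over its degrees of freedom at least 14.7). Depth ran from 7197118 to 10304156 reads; where a library has 0 reads, up to 3 remain possible by counting error alone. The 6-week comparison used the authors' table alone. Named genes were the 6 with the smallest p in each direction at 12 weeks, the 5 in each direction at 6 weeks, and 23 of 26 genes listed by role; Zfp106, Zfp326 and Zfp462 were not analysed here; other Zfp genes named were chosen after their values were seen. Members and lists were chosen with earlier results of these data known. Alternatives covered pseudocount, filter, scaling, prior, tool, replicate block, library weights and left-out libraries; removing the trend over span, and leaving out MI+TRD 6 with MI 4, were added after seeing the data. The steps were tested on simulated data. Versions were R 4.3.3, limma 3.58.1, edgeR 4.0.16 and DESeq2 1.42.0.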

Additional observations from a re-analysis of the deposited data

Results flagged for a closer look

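In 19 of 310 groups of 6 libraries (6.13%), 1 library lay far from the other 5, where chance gives about 1 in 20. No explanation was tested for any of them.

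In MI+TRD 5, Zfp451 stood high at 17.9 (the others 8.59 to 10.3) and Zfp639 at 11.6 (5.34 to 6.39), while Zfp422 stood low at 7.77 (11.02 to 13.5), Zfp787 at 7.38 (10.4 to 12.5), Zfp800 at 1.22 (3.25 to 5.196) and Zfp52 at 0.0392 (0.844 to 1.998), which is 0 reads. In MI+TRD 4, Zfp622 stood high at 10.1 (5.77 to 6.87), and Zfp706 at 6.65 (9.69 to 11.7) and Zfp90 at 0.316 (0.756 to 1.05) low. In MI+TRD 1, Zfp219 stood high at 29.3 (21.4 to 23.8). In MI+TRD 2, Zfp472 stood low at 0.593 (1.11 to 1.44). In MI+TRD 3, Zfp653 stood low at 1.30 (1.96 to 2.27).

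In MI 1, Zfp608 stood low at 2.36 (5.66 to 9.31), Zfp763 at 0.483 (1.46 to 2.22) and Zfp870 at 2.74 (4.47 to 5.24). In MI 4, Zfp638 stood low at 10.5 (19.4 to 21.9) and Zfp68 at 5.94 (15.04 to 21.5). In MI 2, Zfp110 stood high at 30.3 (19.6 to 21.6), and in MI 5, Zfp397 stood low at 1.76 (2.97 to 3.98). All values are normalized counts.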

How the results depend on the processing

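No Zfp gene passed the adjusted threshold under any alternative at 12 weeks except in the authors' deposited table, where 3 did. The number higher at an unadjusted p below 0.05, 7 as reported, was 16 with median ratio scaling, 23 with equal column totals, 12 with quantile normalization, 15 by edgeR, 18 by DESeq2, 1 with library weights (0.645%, beside 1.4% of all genes) and 2 without MI+TRD 1, 4 and 5; the number lower, 20 as reported, was 7, 3, 8, 7 and 7 under the first 5 of these, 19 with library weights (12.3%, beside 13.7%) and 23 without MI+TRD 1, 4 and 5 (14.9%, beside 9.69%, where 12.9% beside 19.1% was reported). With each library left out in turn, 1 to 10 were higher (0.645% to 6.45%), where the share of all genes ran from 1.78% to 3.27%. In the same fits 11 to 22 were lower (7.1% to 14.2%), where that of all genes ran from 13.4% to 22%. The median relative to all genes was 0.031 to 0.13. It was -0.048 without MI+TRD 1, 4 and 5, the libraries in which the median Zfp gene stood highest. At 6 weeks the count of 1 higher became 0 at a false discovery rate below 0.05, 0 at a fold of at least 1.5 and 0 among genes at or above the median level, and that of 11 lower became 0, 7 (4.35%, beside 1.65% of all genes) and 5 (11.1%, beside 4.51%); of all genes 0%, 3.74% and 2.66% were higher.

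Replicate numbers did not pair the samples: deviations of same-numbered libraries correlated at -0.247, 0.327, 0.142, 0.194, 0.121 and -0.332. With the replicate block 0 were called, 5 were higher (3.23%, beside 2.55% of all genes) and 19 lower (12.3%, beside 17.2%).

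Of 41 named genes, 22 kept the sign of their relative log2 fold change throughout, and 19 changed it at least once. Without MI+TRD 1, 4 and 5, it became -0.061 for Zfp251, -0.052 for Zfp521, -0.26 for Zfp516, -0.089 for Zfp426, -0.045 for Zfp532, 0.59 for Zfp36, 0.29 for Zfp36l2, -0.17 for Zfp148, -0.098 for Zfp423, -0.17 for Zfp609, 0.021 for Zfp703, 0.049 for Zfp593, -0.032 for Zfp418 and 0.039 for Zfp384. With library weights it became -0.0019 for Zfp521, -0.034 for Zfp426, 0.035 for Zfp36, -0.0301 for Zfp609 and 0.065 for Zfp598. With the trend over span removed it became -0.026 for Zfp516, 0.14 for Zfp36, 0.14 for Zfp36l2, -0.11 for Zfp609, 0.17 for Zfp703 and 0.047 for Zfp598. Without MI+TRD 6 and MI 4 it became 0.041 for Zfp622 and 0.059 for Zfp598. For Zfp365 it became -0.11 by edgeR, -0.11 by DESeq2 and -0.10 in the authors' deposited table. With 1 library left out, the range included both signs for Zfp580 (-0.039 to 0.086), Zfp516 (-0.0802 to 0.18), Zfp365 (-0.057 to 0.38), Zfp426 (-0.015 to 0.14), Zfp142 (-0.20 to 0.047), Zfp36 (-0.34 to 0.075), Zfp36l2 (-0.18 to 0.033), Zfp609 (-0.035 to 0.089), Zfp703 (-0.088 to 0.048), Zfp622 (-0.16 to 0.024) and Zfp598 (-0.072 to 0.036). The cause was not tested.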
